A study of Macaca fascicularis with 132 samples.

Results

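Late-raised genes are those whose RNA stayed near that of the control culture through the first hours with interleukin-15 (IL-15) and was higher only afterwards. They were chosen by measured values: the counts of the 3 libraries of an animal and group were summed and scaled to the library total (CPM), log2(CPM + 1) was averaged over 4 animals, and the effect of IL-15 at each time was the treated mean minus the control mean. A member needed a mean of at least 5 CPM in some control group, an effect under 0.3 in size at 2, 6 and 12 h, and an effect of at least 0.8 at 48 h. The rule gave 146 genes, of 38550 rows in the table and 10811 genes past the floor of 5 CPM. The effects at 2, 6, 12 and 48 h are therefore descriptions, and only comparisons at 24 h are tested. The rule used no IL-15 library of 24 h, but its floor could be met in any control group, those of 0 and 24 h included. Without these 2 groups 145 of the 146 members still passed the floor.

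The libraries came from peripheral blood mononuclear cells of 4 cynomolgus macaques, 2 females and 2 males, kept outside the body in culture. The treated cultures received IL-15 joined to its receptor alpha chain (IL-15/IL-15Ra) at 40 ng/ml and were sampled at 2, 6, 12, 24 and 48 h. Control cultures were sampled at the same times and at 0 h. Each animal gave all 11 groups, with 3 libraries in each. The animal was the unit of replication (n = 4), except in an alternative fit with libraries entered singly.

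IL-15 is a cytokine that supports the survival, growth and killing activity of natural killer cells and CD8+ memory T cells. It is normally presented to these cells while bound to its alpha receptor, and the cells receive it through a beta chain shared with the IL-2 receptor and the common gamma chain. Signals from these chains act through JAK1, JAK3 and STAT5, and genes that STAT5 binds directly can respond within hours, whereas genes that depend on newly made proteins, on cell division or on signals passed between cells respond later. Mononuclear cells of blood are a mixture of T cells, natural killer cells, B cells and monocytes, so a rise in an RNA could reflect more cells of a type or more of that RNA per cell, and these cannot be told apart in libraries of the whole mixture.

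The table names genes by Ensembl IDs, and 0 of the 146 could be matched to a symbol in the reference table used here. Pathway lists and markers of cell types were therefore not run, and the identity of the cells was not checked against markers. Members are described by their courses, and at most 4 are given by ID. Library totals ran from 16423972 to 87944372 counts with a median of 27185130, and the median count of a member in a sum of 3 libraries was about 1160.5. Only 44 of the 6424 pairs of a member and a sum held under 10 counts. Of all the libraries, 3 lay far from both sister libraries, a control library of animal 38142 at 48 h, an IL-15 library of animal 38147 at 24 h and a control library of animal 38157 at 2 h. Without these, the median effect of the members was 0.50 at 24 h and 1.23 at 48 h, against 0.50 and 1.21 with them.

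On the rule's scale the RNA of these genes lay close to that of control cultures up to 12 h, as the rule requires. It was higher with IL-15 at 24 h, and the gap was wider at 48 h. Since the rule limits the effect at 12 h, no time of onset is read from this course. The median effect over the 146 members was 0.02 at 2 h. It was still 0.00 at 6 h and 0.03 at 12 h, then reached 0.50 by 24 h, and 1.21 after 48 h, on the log2(CPM + 1) scale. A value of 1.21 corresponds to a ratio of 2.32 in CPM + 1, and for scarce genes the ratio in CPM itself is larger. At 48 h the members ranged from 0.80 to 5.03, and 100 of them had an effect of at least 1, 27 of at least 2 and 7 of at least 3. At 12 h, by contrast, the highest value was 0.29, as the rule requires. For all genes past the floor the median on this scale was -0.15 by 12 h, -0.14 by 24 h and -0.07 after 48 h.

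**Figure D1:**
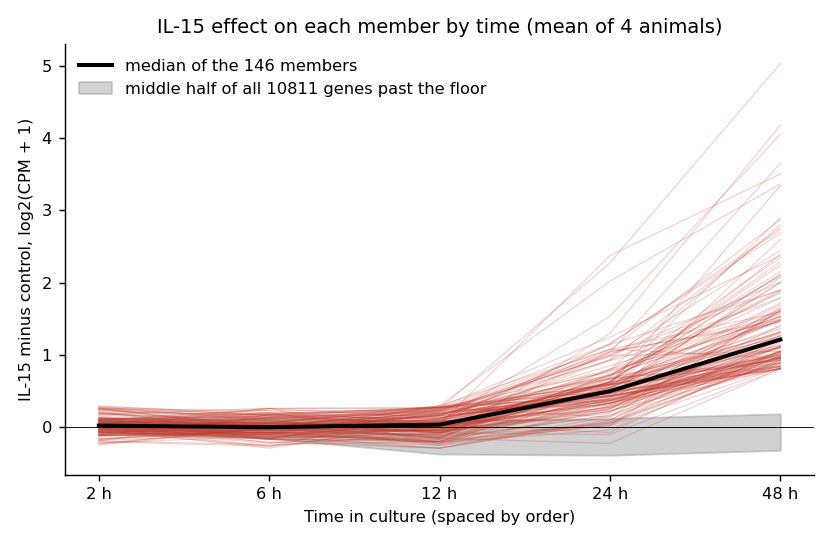
IL-15 effect (IL-15 minus control, log2(CPM + 1), mean of 4 animals) on each of the 146 members against time in culture, with 1 thin line per member, their median as a thick line and the range between the quartiles of all 10811 genes past the floor as a grey band. The lines lie within 0.3 of 0 up to 12 h, as the rule requires, and have a median of 0.50 at 24 h and 1.21 at 48 h, while the quartiles of all genes are -0.39 and 0.12 at 24 h, and -0.32 and 0.18 by 48 h.

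How flat the members were at 12 h depended on the scaling. The rule scales by the library total, and with TMM scaling, which sets the bulk of genes near 0, the median effect of the members became 0.18 at 12 h, 0.66 by 24 h and 1.34 by 48 h. All genes past the floor then had medians of 0.02, 0.02 and 0.05 at these times, a shift of over 0.1 from the rule's scale at each. In a fit of all genes with TMM scaling, 33 of the 146 members were called higher at 12 h and 0 lower (edgeR quasi-likelihood test, adjusted p under 0.05), beside 17.5% of all genes tested that were called higher and 14% lower. Among genes past the floor these shares were 25.4% and 16.8%, and the share of members called higher, 22.6%, lay between the 2 backgrounds. At 2 and 6 h 0 members were called in either direction, where 1.67% and 5.12% of all genes were called higher and 0.495% and 3.54% lower. At an unadjusted p under 0.05, 2 members had higher and 3 had lower values at 2 h, and at 6 h there were 5 higher and 1 lower. At 48 h 146 of 146 were called higher, beside 20.2% of all genes. The rule used these contrasts, and nothing is read from the counts. The word late holds on the scale of library totals, where the rule was set.

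The choice also has edges. The members closest to the limit at 48 h had effects of 0.804, 0.804 and 0.804, and the closest genes left out, flat early and past the floor, had 0.797, 0.794 and 0.794. On the early limit the largest effect in size at 2, 6 or 12 h was 0.295, 0.295 and 0.294 in the nearest members and 0.301, 0.304 and 0.306 in the nearest genes left out. On the floor, the highest control mean was 5.19, 5.25 and 5.26 CPM in the nearest members and 4.92, 4.83 and 4.79 CPM in the nearest genes left out. In all, 23 members lay between 0.8 and 0.9 at 48 h, and 30 further genes lay between 0.7 and 0.8.

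Before culture the members were RNAs of low to moderate abundance. Their median level at 0 h was 11.2 CPM, with 35 members under 5 CPM and 14 at 100 CPM or more, while the median of all genes past the floor was 28.5 CPM. CPM values are not corrected for gene length, so these levels compare RNA molecules of different lengths and are given only as abundance in the libraries. The spread between the 4 animals at 0 h had a median SD of 0.25 on the log2(CPM + 1) scale over the members and 0.23 over all genes past the floor. In 3 members (2.05%) the highest and lowest animal at 0 h were at least 2 apart on that scale, as in 2.52% of all genes past the floor.

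The level of the whole module was close in treated and control cultures until 12 h. At 12 h the median over the members was 12.5 CPM in animal 38142, 12.96 CPM in 38147, 12.02 CPM in 38155 and 12.9 CPM in 38157 with IL-15, against 12.3, 11.3, 12.6 and 12.5 CPM in the control cultures of the same animals. At 24 h it was 21.7, 17.97, 17.93 and 20.6 CPM with IL-15, against 12.9, 12.4, 13.1 and 14.2 CPM in control. At 48 h it was 44.7, 38.3, 40.9 and 33.8 CPM with IL-15, against 13.2, 13.3, 13.6 and 14.01 CPM in control. The 2 sets of 4 animals overlapped at 12 h and were apart at 24 and 48 h. As a share of all counts, the members took 1.71% with IL-15 at 48 h and 0.684% in control at 48 h. At 24 h the shares were 1.08% with IL-15 and 0.755% in control.

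**Figure D2:**
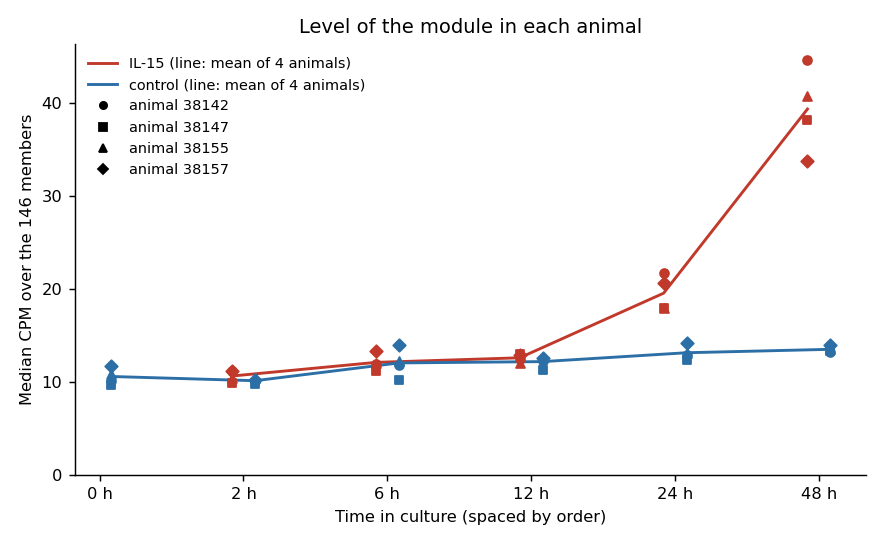
Median CPM over the 146 members (vertical axis) in each animal against time in culture, with IL-15 in red and control in blue, 1 marker shape per animal and lines for the mean of the 4 animals. Both arms lie between 9.69 and 14.02 CPM in every animal up to 12 h, and at 48 h the IL-15 cultures lie between 33.8 and 44.7 CPM and the control cultures between 13.2 and 14.01 CPM.

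Measured from 12 h, where the rule holds the arms close, the gap came mainly from the treated side. Between 12 and 48 h the level with IL-15 changed by a median of 1.28 on the log2(CPM + 1) scale, and that in control cultures by a median of 0.08. With a limit of 0.4 for a change over this span, only the control went down for 13 members and both happened for 12. For all the other members only the IL-15 cultures went up. Counting a change of any size, the control was lower at 48 h than at 12 h in 59 members. The level with IL-15 was lower at 48 h than at 12 h in 9. The level with IL-15 at 48 h was the highest of all 11 group means in 120 members, and in 8 members the highest was at 0 h. These counts share the 12 and 48 h libraries with the rule and are descriptions.

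The first tested question was whether the members differed at 24 h, a time whose effect the rule did not use. They did so in 1 direction. All 146 were tested, and 84.2% of them, all but 23, were called higher with IL-15 and 0 lower (edgeR quasi-likelihood test, adjusted p under 0.05 over 18197 genes, n = 4 animals), beside 20% of all genes tested that were called higher and 19% called lower. DESeq2 also called 0 members lower, and 0 had a lower value at an unadjusted p under 0.05. Among genes past the floor of 5 CPM the share called higher was 28.1%, with 21.1% lower, and among the 5302 that were flat early and under 0.8 at 48 h it was 28.1%, with 4.72% lower. Among the 399 other genes past the floor with an effect of at least 0.8 at 48 h it was 84.7%. The share of 84.2% is thus not particular to the members among genes raised at 48 h.

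The log2 fold changes at 24 h, on edgeR's TMM scale, had a median of 0.68 over the members, 0.11 over the 5302 genes flat early and under 0.8 at 48 h, and -0.05 over all genes tested. The median SE of a member was 0.15. Among those called, values ran from 0.25 to 3.43 with a median of 0.77, and 30 were at least 1. The 23 that did not pass had values from -0.04 to 0.83, with 22 of them above 0. On the rule's scale, the 4 animals agreed in sign, all higher, for 79.5% of members, against 18.9% of all genes past the floor and 13.5% of the 5302. All 4 IL-15 sums lay above all 4 control sums at 24 h for 67 members (45.9%), beside 9.36% of genes past the floor. At 48 h this held for 86.99% of members, beside 11.4% of genes past the floor, a count the rule largely sets.

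**Figure D3:**
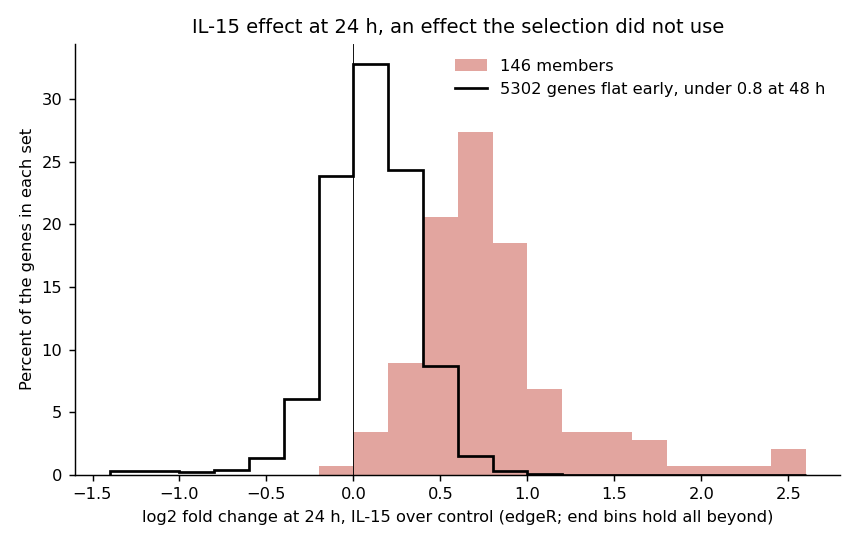
Distribution of the log2 fold change at 24 h, IL-15 over control (horizontal axis, edgeR with TMM scaling), as percent of the genes in each set (vertical axis), for the 146 members (filled) and the 5302 genes that were flat early and under 0.8 at 48 h (line). The members have a median of 0.68 and 145 of 146 lie above 0, while the 5302 genes have a median of 0.11 with 67.6% above 0.

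At 24 h the members stood at different points of their course. On the rule's scale, 24 already had an effect of at least 0.8 at 24 h, 92 had one between 0.3 and 0.8, and 30 were still under 0.3, of which 4 were below 0. The 24 had a median effect of 2.19 at 48 h and the 30 a median of 1.04. The effect at 24 h was a median of 0.379 of that at 48 h, with quartiles of 0.264 and 0.499. In 145 members the effect was greater at 48 h than at 24 h, and in 130 this held in 4 of 4 animals. Since the rule sets a lower limit at 48 h and none at 24 h, this order is partly built in. The effects at 24 and 48 h correlated with a Pearson r of 0.727 over the 146 members, which share animals and culture. No library enters both effects.

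A comparison with other genes raised at 48 h shows where the early limits matter. Past the floor, 399 further genes had an effect of at least 0.8 at 48 h without being flat early. Their median effect at 48 h was 1.26, close to the 1.21 of the members, but at 24 h it was 1.11 against 0.50 in the members, and at 12 h it was 0.82. At 24 h 338 of the 399 were called higher (84.7%), and at 48 h the effect was above that at 24 h in 68.9% of them, against 99.3% of the members. Early flatness and the limit at 48 h chose the 2 sets, so no test was made of the differences.

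The second tested question was how the members behaved in culture without the cytokine. By 24 h against 0 h, 42 members had risen, 38 had fallen and 66 did not pass (edgeR quasi-likelihood test, adjusted p under 0.05, n = 4 animals), beside 30.1% of all genes tested that rose and 25.4% that fell. Among genes past the floor 33.9% rose and 31.6% fell. The shares among the members were 28.8% and 26.03%, near those backgrounds. The median log2 fold change over the members was 0.00, and over all genes tested it was 0.06. Among the 399 other genes raised at 48 h, 23.1% rose and 32.3% fell. Courses in both directions in control culture are thus no particular property of the members. The members are described below in the 3 sets this test gives, which are defined by the control sums of 0 and 24 h. The levels of a set at 0 h, and its effects at 24 h, share those sums with its definition and are given as descriptions. No share over all genes of the same course stands beside the counts called in each set. Nothing particular to the members is therefore read from those counts.

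With IL-15 at 24 h against 0 h, 98 members had risen and 13 had fallen (edgeR, adjusted p under 0.05), beside 32.5% of all genes tested that rose and 28.3% that fell, and 40.6% and 32.3% of those past the floor. Among the members the shares were 67.1% and 8.90%. The median log2 fold change was 0.74, against 0.05 over all genes tested. This comparison and that of the control cultures share the 0 h sums, so each is given with its own values only.

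The 42 members that rose in control culture had a median level of 6.30 CPM at 0 h. A low level there is partly built in, since a member under 5 CPM at 0 h entered only through a later control group. At 24 h they had a median of 16.9 CPM with IL-15 and 11.7 CPM in control, and at 48 h 39.03 CPM with IL-15 and 13.5 CPM in control. Of these, 41 were called higher with IL-15 at 24 h, with a median log2 fold change of 0.73. In this set IL-15 came on top of a rise that control cultures showed as well: against 0 h the median difference at 48 h was 2.28 with IL-15 and 0.92 in control on the log2(CPM + 1) scale.

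The 38 members that fell in control culture had a median of 21.2 CPM at 0 h, a level that likewise helped to define the set. At 48 h they had a median of 34.7 CPM with IL-15 and 13.4 CPM in control. Against 0 h the median difference was 0.05 with IL-15 and -0.49 in control at 24 h, and 0.80 with IL-15 and -0.86 in control at 48 h. In 25 of the 38 the mean at 48 h with IL-15 was above that at 0 h, and in 5 the mean in control was. At 24 h 27 of them were called higher with IL-15 than in control, with a median log2 fold change of 0.75. By that time 7 of the 38 were called higher with IL-15 than at 0 h and 13 lower.

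The 66 members without a call in control culture started at a median of 11.7 CPM and stood at 43.6 CPM with IL-15 and 13.5 CPM in control at 48 h. At 24 h 55 of them were called higher with IL-15, with a median log2 fold change of 0.66. Over the 3 sets the median effect at 48 h was 1.16 in members that rose in control culture, 1.23 in those without a call and 1.29 in those that fell. The rule cut all 3 sets at the same limit of 0.8 at 48 h, so nothing is read from their likeness.

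**Figure D4:**
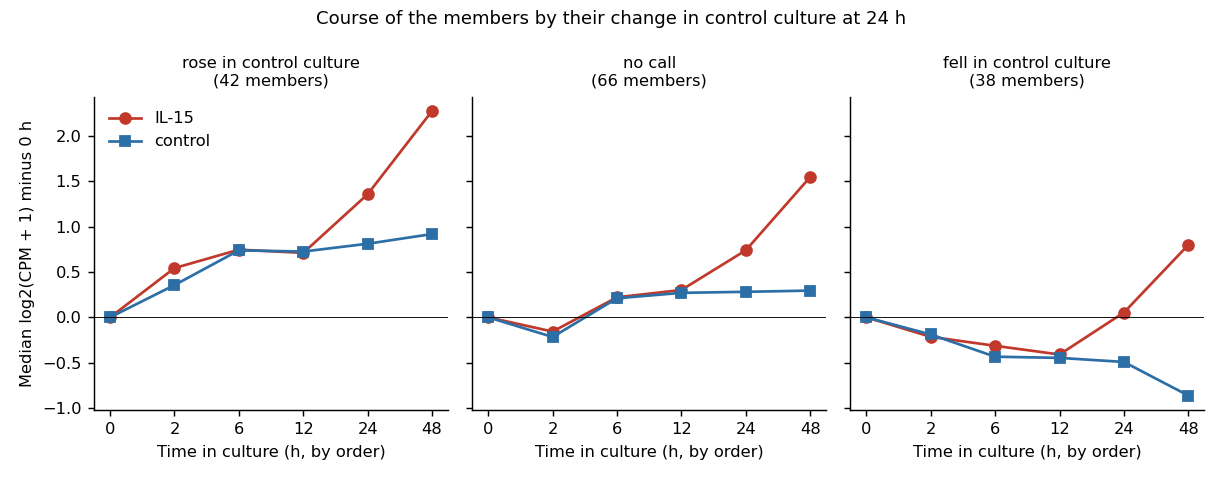
Median difference from 0 h in log2(CPM + 1) (vertical axis) against time in culture for the members that rose (42), did not pass (66) or fell (38) in control culture by 24 h, with IL-15 in red and control in blue. In each panel the arms run together up to 12 h, and at 48 h the medians are 2.28 with IL-15 and 0.92 in control in the first, 1.55 and 0.29 in the second, and 0.80 and -0.86 in the third.

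By level at 0 h, the share of members called at 24 h was lowest among the most abundant. Of the 37 members with the highest levels (38.5 to 1440.3 CPM), 22 were called higher with IL-15 at 24 h (59.5%), beside 30.1% of all genes past the floor in that range of levels. Of the 37 with the lowest levels (0 to 5.10 CPM), 35 were called (94.6%), beside 20.6%. Between them, 32 of 36 (88.9%) were called at 5.22 to 11.03 CPM, beside 22.02%, and 34 of 36 (94.4%) at 11.4 to 36.4 CPM, beside 31.6%. The other 3 ranges thus lay close together, and the difference of the highest from them was not tested. The median log2 fold change was 0.60 at the highest levels and 0.92 at the lowest, and the median SE 0.19 and 0.15. Adding 1 to CPM in the rule shrinks the effects of scarce genes, so a scarce member needed a larger fold change at 48 h to enter. Larger fold changes at the lowest levels can thus be partly built in. The added 1 shrinks early effects likewise, so a scarce gene could count as flat early despite a larger early fold change. The median effect at 48 h, which the rule cut at 0.8, was 1.03 at the highest levels and 1.61 at the lowest.

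The animals differed in the size of the late effect. At 48 h the median over the members was 1.43 in animal 38142, 1.28 in 38147, 1.33 in 38155 and 0.94 in 38157. Animal 38157 had the smallest effect of the 4 for 71.9% of members and animal 38142 the largest for 83 (56.8%). Among the 399 other genes raised at 48 h, 38157 had the smallest effect for 40.6% and 38142 the largest for 47.1%. The control sum of 38142 at 48 h holds a library that lay far from its sister libraries, and these values include it. At 48 h 143 of 146 members (97.9%) were higher in 4 of 4 animals, beside 23.9% of genes past the floor. The rule favours this without requiring it, so the count is a description.

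At 24 h animal 38142 again had the largest median effect, while 38157 did not stand below the others as at 48 h. The median effect was 0.65 in 38142, 0.44 in 38147, 0.45 in 38155 and 0.44 in 38157, so that 3 animals lay close together and 38142 stood above them. Animal 38142 had the largest effect for 81 members (55.5%), beside 31.8% of the 399 other genes raised at 48 h. Effects of 2 animals at 24 h correlated across the members with a Pearson r between 0.35 and 0.744 over the 6 pairs of animals, and at 48 h between 0.72 and 0.893. Members are not independent replicates, and these values only describe how far animals ranked the members alike.

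Females and males were compared at 24 h with 2 animals each. Of the 146 members, 0 differed at an adjusted p under 0.05 (limma on the fold changes of single animals), beside 0.011% of all genes higher and 0.0495% lower in females. At an unadjusted p under 0.05, 7 members passed (4.79%), against 6.15% of all genes. The edgeR interaction called 0, with 9 members at an unadjusted p under 0.05 (6.16%), against 5.03% of all genes. With the fold changes averaged over the 5 times, limma also called 0 members, but 24 passed at an unadjusted p under 0.05 (16.4%), against 8.09% of all genes. That average includes the times the rule used. With 2 animals a side sex cannot be told apart from other differences between the animals, and a miss does not show that the sexes responded alike.

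Part of each library's column name (such as Lib1 GL67 or Lib2 GL75) has no explanation in the sources, and whether it marks a batch is unknown. At 24 h only 2 of the 6 sets of tokens held both arms of an animal, and it was the same animal in both, 38155. The median effect of the members was 0.46 in Lib1 GL67 and 0.43 in Lib1 GL75. It was 0.45 in all libraries of that animal and 0.50 over all animals. In both of these sets most members, but not all, lay above 0 at 24 h. In every other animal the arms shared no set of tokens at 24 h. Treatment and tokens cannot be told apart in those animals at that time. At 48 h the median was 1.52 in Lib1 GL67 (2 animals), 1.17 in Lib1 GL75 (3 animals) and 1.35 in Lib2 GL75 (1 animal). At that time 146 of 146 members lay above 0 in each. The rule chose the members by their effect at 48 h, from sums that hold these libraries. The values at 48 h are thus largely built in, and a difference between the sets of tokens was not tested. Lib1 GL66, Lib1 GL76 and Lib1 merged held no such pair of arms at either time.

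Of the 4 members given by ID, 2 are those with the largest fold change at 24 h among the members that passed at 24 h, were higher in 4 of 4 animals and reached 10 CPM with IL-15 at 48 h. The other 2 have the deepest fall in control culture among 15 members that fell in 4 of 4 animals from at least 10 CPM. The choice by size means that their values are no separate support for the pattern of the module. None of the 4 has a symbol or a known role in the sources used here.

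ENSMFAG00000037072 had the largest effect at 48 h of all members. At 0 h it stood at 71.8 CPM in animal 38142, 56.9 CPM in 38147, 54.3 CPM in 38155 and 94.4 CPM in 38157. At 12 h it was at 53.4, 50.5, 34.4 and 71.6 CPM with IL-15, against 47.8, 35.2, 33.4 and 58.1 CPM in control. At this time the arms overlapped, although each animal was higher with IL-15.

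At 24 h ENSMFAG00000037072 was at 131.2, 123.9, 67.01 and 125.4 CPM with IL-15, against 21.5, 19.8, 16.9 and 29.9 CPM in control, and the arms no longer overlapped. The log2 fold change was 2.52 ± 0.24 (SE; edgeR adjusted p = 1.4e-09, higher in 4 of 4 animals). At 48 h it reached 1186, 769, 725 and 494 CPM with IL-15, against 27.1, 10.1, 30.6 and 27.7 CPM in control. The mean effect on the log2(CPM + 1) scale corresponds to a ratio of 32.8 in CPM + 1. The control level fell by 24 h, with a log2 fold change of -1.98 ± 0.24 against 0 h (adjusted p = 1.9e-08), so the gap at 24 h had parts on both sides. With IL-15 at 24 h it differed from 0 h by 0.55 ± 0.23 (adjusted p = 0.040), a call that was lost in 8 of 14 alternatives (adjusted p up to 0.25).

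ENSMFAG00000003587 was scarce in control culture and in treated culture up to 12 h. At 12 h it stood at 2.14 CPM in animal 38142, 3.75 CPM in 38147, 1.51 CPM in 38155 and 6.01 CPM in 38157 with IL-15, against 2.84, 5.72, 2.98 and 1.32 CPM in control. Animal 38157 was the only one higher with IL-15 at that time. At 24 h the values were 21.8, 11.1, 12.4 and 88.7 CPM with IL-15, against 4.39, 5.26, 1.67 and 4.10 CPM in control.

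All 4 animals were higher with IL-15 for ENSMFAG00000003587 at 24 h, and animal 38157 stood far above the other 3. The log2 fold change was 3.43 ± 0.71 (SE; edgeR adjusted p = 0.00027), the largest of all members on this scale. Without animal 38157 it was 2.35 and still passed (edgeR adjusted p = 0.00074). At 48 h the values were 154, 55.8, 60.05 and 177 CPM with IL-15, against 7.78, 8.72, 6.56 and 7.91 CPM in control. In control culture at 24 h it did not differ from 0 h beyond the spread (-0.38 ± 0.67, adjusted p = 0.65).

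ENSMFAG00000031678 fell in culture with and without the cytokine, and was higher with it at 24 h. At 0 h it stood at 14.2 CPM in animal 38142, 36.95 CPM in 38147, 13.3 CPM in 38155 and 11.02 CPM in 38157. At 24 h it was at 2.18, 2.93, 1.56 and 3.58 CPM with IL-15, against 1.02, 1.82, 1.16 and 0.651 CPM in control. The arms overlapped narrowly, with animal 38155 with IL-15 below animal 38147 in control.

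The fall of ENSMFAG00000031678 in control culture by 24 h was -4.26 ± 0.36 on the log2 scale (SE; edgeR adjusted p = 6.5e-12), and with IL-15 it was -2.86 ± 0.33 (adjusted p = 5.1e-09). Between the arms at 24 h the log2 fold change was 1.404 ± 0.34 (adjusted p = 0.0014, higher in 4 of 4 animals). At 48 h it was at 6.28, 3.72, 7.33 and 5.17 CPM with IL-15, against 1.28, 1.51, 1.46 and 0.767 CPM in control, still under every 0 h value.

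ENSMFAG00000009757 was the most abundant of the 4 before culture, at 247, 328, 246 and 280 CPM in animals 38142, 38147, 38155 and 38157. At 24 h it was at 43.6, 37.3, 36.99 and 31.7 CPM with IL-15, against 27.9, 33.6, 24.8 and 28.5 CPM in control. Each animal was higher with IL-15, but the arms overlapped, and the log2 fold change of 0.56 ± 0.25 did not pass (SE; edgeR adjusted p = 0.073). It passed in 4 of 15 alternatives, among them the fit with libraries entered singly.

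Against 0 h ENSMFAG00000009757 fell by 24 h in both arms, with log2 fold changes of -3.02 ± 0.27 with IL-15 (SE; edgeR adjusted p = 1.7e-11) and -3.59 ± 0.27 in control (adjusted p = 1.1e-12). At 48 h it was at 61.1, 54.2, 49.8 and 43.5 CPM with IL-15, against 29.01, 25.4, 24.04 and 26.1 CPM in control. The arms were apart at that time, at levels far under those before culture.

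**Figure D5:**
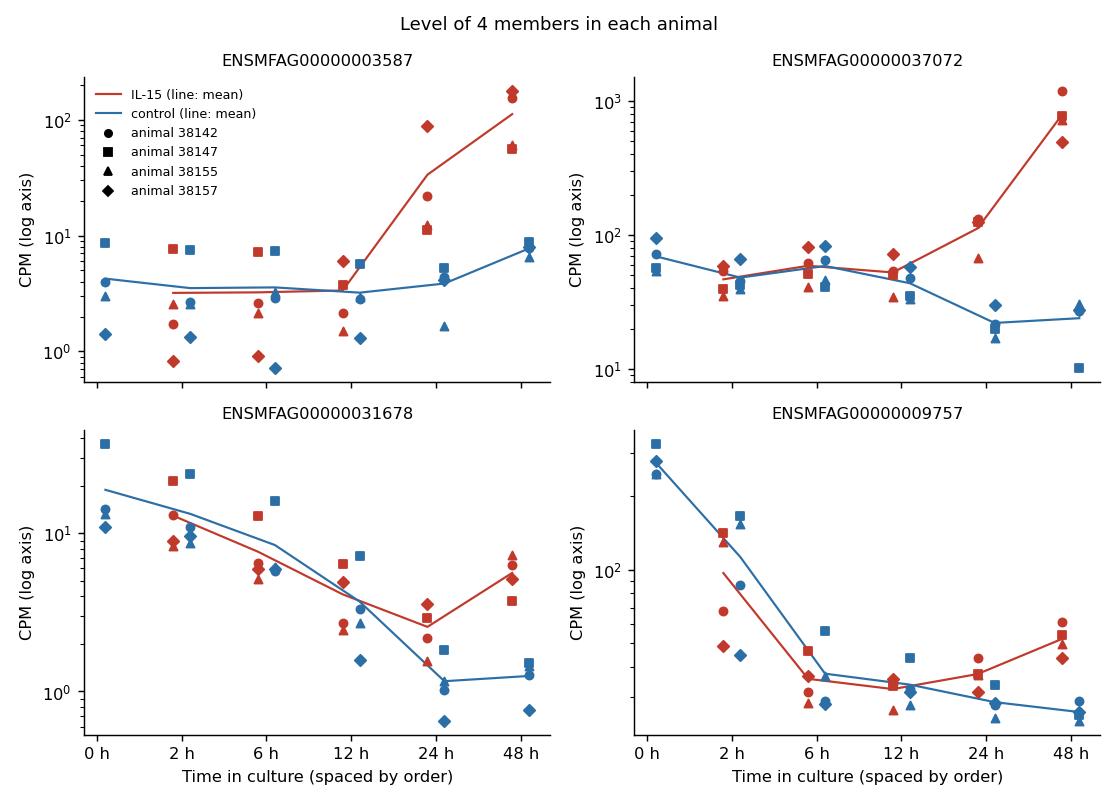
CPM on a log axis (vertical) against time in culture for 4 members, with IL-15 in red and control in blue, 1 marker shape per animal and lines for the mean of 4 animals. In the upper panels IL-15 cultures lie at 494 to 1186 CPM (ENSMFAG00000037072) and 55.8 to 177 CPM (ENSMFAG00000003587) at 48 h against control cultures at 10.1 to 30.6 and 6.56 to 8.72 CPM; in the lower panels both arms end under the 0 h level, with IL-15 above control at 48 h.

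Among the other strong members, 5 had effects between 3.35 and 4.18 at 48 h, with mean levels of 49.9 to 140 CPM with IL-15 and 3.09 to 12.3 CPM in control. All 5 were called higher at 24 h, with log2 fold changes between 0.84 and 2.34. They had means between 7.47 and 44.9 CPM with IL-15 and between 3.15 and 10.01 CPM in control at 24 h. The last of these by its effect at 48 h had 10.6 ± 2.35 CPM with IL-15 and 6.64 ± 1.25 CPM in control at 24 h (SD, n = 4 animals) and 75.4 ± 16.7 CPM with IL-15 and 6.46 ± 1.28 CPM in control at 48 h.

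At the other end, 1 member had 0 counts in all 4 sums at 0 h, which allows up to 0.00986 CPM over those sums (3 counts, counting error only). At 12 h it averaged 0.227 CPM with IL-15 and 0.057 CPM in control and was higher with IL-15 in 4 of 4 animals. On the rule's scale that was an effect of 0.20, within the early limit. With IL-15 it averaged 3.63 ± 2.02 CPM at 24 h and 20.8 ± 6.35 CPM at 48 h (SD, n = 4 animals), against 1.30 ± 0.87 and 9.19 ± 1.00 CPM in control. At 48 h the 4 animals had 23.9, 20.5, 12.1 and 26.8 CPM with IL-15, against 9.82, 8.85, 7.95 and 10.2 CPM in control. The arms were apart at 48 h, and the RNA appeared in both of them late in culture.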

How the data were processed

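The authors deposited whole-number counts per gene and library, not normalized, in 2 tables with cynomolgus and rhesus gene IDs. RNA was isolated with the Qiagen RNeasy Mini Kit and mRNA libraries prepared by KAPA mRNA HyperPrep, per the labels' protocols. Aligner, counter and build were not given in the sources used here. Results come from the table with cynomolgus IDs. All columns matched a sample by library name.

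Libraries of an animal and group were summed to 44 sums (no statement in the labels says whether they are separate cultures; chi-square over degrees of freedom between sister libraries was at least 3.57). edgeR 4.0.16 (R 4.3.3; quasi-likelihood, TMM, filterByExpr, robust, animal as a term, all 11 groups in 1 fit) tested 18197 genes, Benjamini-Hochberg adjusted. limma 3.58.1 compared the sexes on log-CPM with a prior count of 2, and DESeq2 1.42.0 was an alternative. The tests were tested on simulated data.

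Animals pair the samples: an animal's treated and control sums deviated together, with correlations above 0.1 in 20 of 20 pairs (median r 0.804). The members, lists and rules were chosen with earlier results of these data known. Named IDs were the 2 members with the largest fold change at 24 h and the 2 with the deepest fall in control culture, under the conditions given with them. p-values of the main fit rest on 4 animals, and the spread was estimated over all 11 groups together, not at 24 h alone. In a fit of only the groups compared, 117 of the 123 calls at 24 h were kept. The edgeR adjusted p of ENSMFAG00000003587 at 24 h was then 0.030, against 0.00027 in the main fit.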

Additional observations from a re-analysis of the deposited data

Results flagged for a closer look

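Among 60 groups of 4 animals looked at for the 4 IDs and for the medians of the module, 6 held an animal far from the other 3. Chance would give about 1 in 20, or 3, if the groups were independent. They share genes and animals, so no excess is read from this count. The median effect of the members at 24 h was 0.654 in animal 38142 and 0.438 to 0.447 in the other 3. ENSMFAG00000003587 stood at 88.7 CPM with IL-15 at 24 h in animal 38157 and at 11.1 to 21.8 CPM in the others. ENSMFAG00000037072 stood at 67.01 CPM with IL-15 at 24 h in animal 38155, below the 123.9 to 131.2 CPM of the others. ENSMFAG00000031678 was high in the control cultures of animal 38147 at 3 times, with 36.95 CPM at 0 h (11.02 to 14.2 CPM in the others), 23.8 CPM at 2 h (8.73 to 10.95 CPM) and 15.9 CPM at 6 h (5.76 to 6.13 CPM).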

How the results depend on the processing

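The number of members followed the limits of the rule: 228 with a floor of 1 CPM, 223 with the floor taken over all groups and 80 with early effects under 0.2, against 146. TMM scaling gave 148, which kept 69.2% of the 146 and lost 45. The rhesus table gave 143. The 3 libraries that stood apart were left out as an alternative chosen after seeing the data, giving 145 members, with 2 of the calls at 24 h lost, and 42 higher and 38 lower in control culture. Leaving out animal 38142 lost 24 of the calls at 24 h, and leaving out another animal or a library number lost 3 to 17. The replicate numbers did not pair the libraries (30 of 60 pairs above 0.1, median r 0.0996). With libraries entered singly and the replicate number as a block 135 were called. That fit counts the libraries of an animal and group as replicates, so its count does not rest on animals alone. Over all alternatives run for 24 h, 0 members were called lower and 0 calls changed sign. DESeq2 lost 2 of the calls. For ENSMFAG00000003587 the difference between IL-15 at 24 h and 0 h was lost with only the groups compared (log2 fold change 2.34, adjusted p = 0.083). Genes of low count limit the choice, since 5 CPM is the floor.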
